A study of Danio rerio with 10 samples.

Results

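RNA-seq of whole wild-type zebrafish embryos, taken when 17 to 18 somites had formed, was described from 5 libraries. These are the 5 libraries labelled wild type among the 10 of the series, and the other 5, from a tpcn2 mutant, were not used. The embryos were of the ABTU strain, carried no mutation or treatment according to the labels, and were kept at 28 °C. The labels call them 5 replicates and do not say whether each was a separate clutch, nor how many embryos were pooled, so the spread between libraries may in part be technical. Libraries are called replicates 1 to 5 as the labels number them, and the numbers carry no order. Levels across genes are described, with no comparison between genotypes.

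At this stage the zebrafish trunk is being divided into somites, blocks of mesoderm that bud from the presomitic mesoderm as waves of hairy-related gene activity sweep forward. Muscle fibres are starting to differentiate next to the notochord, the neural tube is being patterned, primitive blood forms in the lateral mesoderm, and the skin is still covered by the outer epithelium of the early embryo. The yolk syncytial layer, a nucleated layer between embryo and yolk, exports yolk lipid on apolipoproteins. Teleost fish kept many genes in duplicate from an ancient genome duplication, and such duplicates carry the letters a and b in their symbols.

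Levels are given as CPM, the reads of a gene scaled to a common library total after TMM normalisation, and errors are the SD over the 5 libraries (n = 5). No comparison between groups was tested, because the libraries form 1 group, and the libraries were set against each other by a chi-square of their counts and by Dixon's criterion for a library far from the rest. CPM is not divided by transcript length, and no transcript lengths were used here, so an order of genes by CPM is an order of reads and not of transcript number. Comparing 1 gene among libraries needs no correction for length, though genes with fewer reads carry more counting error. In whole embryos a lower level can come from fewer cells of a type or from less RNA per cell, and these cannot be told apart.

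The libraries were sequenced to similar depth. Total counts lay between 18616906 and 22498643, with a mean of 20059586 ± 1615092, and 3 reads, taken as the floor, were worth 0.134 to 0.161 CPM in a library. TMM factors lay between 0.992 and 1.01. Pearson's r of log2 CPM across the 9287 genes with a mean of at least 5 CPM was 0.981 to 0.986 between replicate 1 and the others and 0.988 to 0.993 among replicates 2 to 5, where genes are not independent replicates. Replicate 1 therefore stood a little apart, and results that rest on it are given with the values of the other 4 libraries. No pair of libraries agreed within sampling noise, with a chi-square per gene of 8.26 to 28.8, so none was taken as a library deposited more than once, which does not show that they came from separate clutches.

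Most genes of the table were detected. Of 14650 genes, 10755 (73.4%) had at least 1 CPM in every library and 644 had no read in any of the 5. The median over all genes was 14.2 CPM. 109 genes averaged 1000 CPM or more, 1988 lay between 100 and 1000 CPM, 5986 between 10 and 100 CPM and 3141 between 1 and 10 CPM. A further 2782 genes had reads but a mean under 1 CPM. 603 genes held 50% of all counts and 4420 genes held 90%.

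Genes known for the outer epithelium, the yolk syncytial layer or the translation machinery were many of those with the highest read counts. In whole embryos the tissue their reads came from was not measured. krt4, a keratin of the superficial epithelium, had 29146, 31584, 26019, 27158 and 30720.3 CPM in replicates 1 to 5, from 2.58 to 3.19% of each library, and led every library. hspa8, the constitutive Hsc70 chaperone, followed with 10069.7, 9423, 8343, 8883 and 9949.5 CPM, and eef1a1l1, translation elongation factor 1 alpha, with 7251, 8528, 8442, 8398 and 8702 CPM. Replicate 1 was the lowest library for eef1a1l1, with the other 4 lying close together. hmga1a, a high mobility group chromatin protein, averaged 7387 ± 295 CPM and hmgb2a, another, 3754 ± 323 CPM. The cytoplasmic actin genes actb2 and actb1 averaged 5699 ± 355 and 4259.6 ± 225 CPM.

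Among the 20 genes of highest mean CPM, 6 are genes of the yolk syncytial layer or liver, for lipid transport, plasma proteins or, in 1 case, an enzyme. They are apoeb at 6455 ± 942 CPM, afp4, an antifreeze-type protein gene related to apolipoproteins, at 4616 ± 725, apoa1a at 4524 ± 560.1, apoa1b at 3390.2 ± 870.0, the transferrin gene tfa at 3025 ± 472 and bhmt, the enzyme betaine-homocysteine methyltransferase, at 3426 ± 528 CPM. Each of these 6 was highest in replicate 3 and lowest in replicate 1 or 2. psap, the precursor of the lysosomal saposins, was also highest in replicate 3 and lowest in replicate 2, with 3002, 2865, 4826, 3948 and 3776 CPM. The ADP/ATP carrier gene slc25a5 was the steadiest of the 20, at 3789, 3762, 3814, 3754 and 3743 CPM, and krt5, an epidermal keratin, the least steady, at 4555, 1689.7, 2372, 3570.1 and 1728 CPM. For krt5, replicates 1 and 4 lay above the other 3 libraries. The rest of the 20 were the ribosomal protein genes rpl3 (3730.4 ± 187 CPM) and rps2 (3266 ± 60.7 CPM), the cytosolic chaperone hsp90ab1 (2888 ± 59.3 CPM) and the neural beta-tubulin tubb2b (2834 ± 218 CPM). Together the 10 highest genes took 8.20 to 8.50% of each library and the 100 highest 24.2 to 24.9%.

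**Figure D1:**
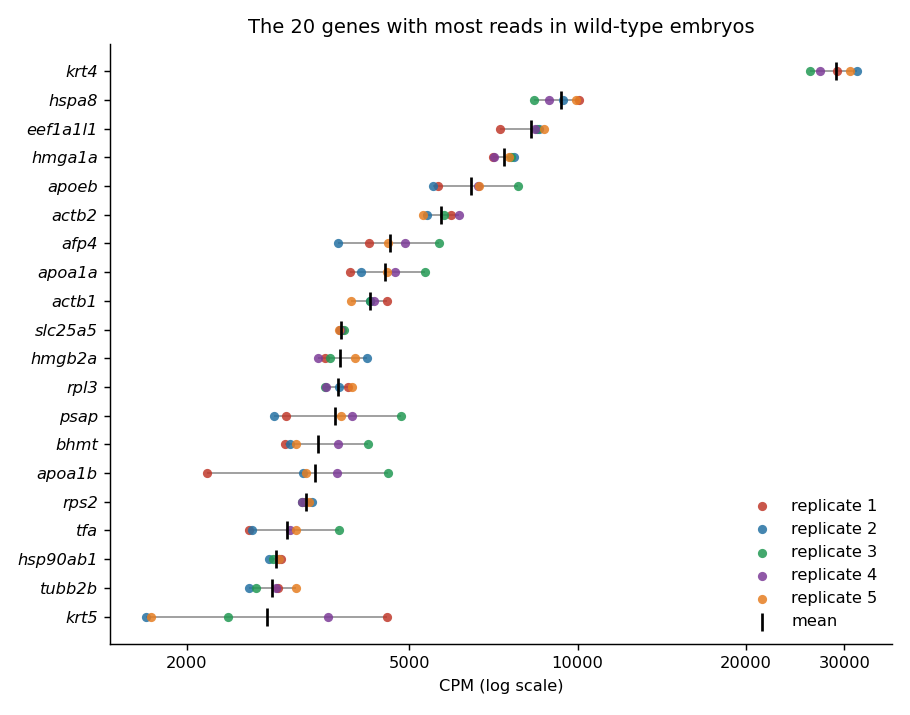
CPM of the 20 genes with the highest mean in wild-type embryos, on a log axis, with a coloured point for each of the 5 libraries, a grey line over their range and a black tick at the mean. krt4 stands alone at 26019 to 31584 CPM, the 5 points of slc25a5 coincide, and krt5, apoa1b and psap spread most.

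Most classes of genes, taken by their symbols, held stable shares of the counts. The 81 genes of cytosolic ribosomal proteins took 6.25% ± 0.338 of counts, with the highest share in replicate 2 (6.80%) and the lowest in replicate 1 (5.91%). The 18 keratin genes took 4.08% ± 0.265, of which krt4 alone held 71.0%. Heat shock proteins and chaperonins took 2.26% ± 0.128, with hspa8 at 41.2% of the class. Translation initiation factors took 1.85% ± 0.0211, elongation factors 1.23% ± 0.0636, actins 1.41% ± 0.0906, solute carriers 1.38% ± 0.0577, proteasome subunits 1.19% ± 0.039 and nuclear genes of the respiratory chain and ATP synthase 1.16% ± 0.0198.

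The other classes each held under 1% of counts except the apolipoproteins. hnRNPs, which package and splice RNA, took 0.953% ± 0.0299, tubulins 0.665% ± 0.0257, histone genes 0.4% ± 0.032, mitochondrial ribosomal proteins 0.389% ± 0.00592, zinc finger genes with a znf symbol 0.369% ± 0.0132, sox genes 0.229% ± 0.0169, collagens 0.2% ± 0.0118 and hox genes 0.117% ± 0.00627. The 10 apolipoprotein genes varied most among these 18 classes relative to their mean. Their shares were 1.73, 1.99, 2.52, 2.23 and 2.11% in replicates 1 to 5, so that replicate 1 held the least and replicate 3 the most.

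The tissues of the embryo were read from 22 lists of marker and regulator genes with 612 distinct genes in the table. Of these, 506 (82.7%) had at least 1 CPM in every library, against 73.4% of all genes, and their median was 20.6 CPM against 14.2 CPM over all genes. Each list for a tissue of this stage had members at 1 CPM in every library. The list of genes of later differentiation was the lowest, with 8 of 36 members at 1 CPM in every library. The members were chosen for being known markers, so these counts describe the lists and do not set them apart from other genes of like level.

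**Figure D2:**
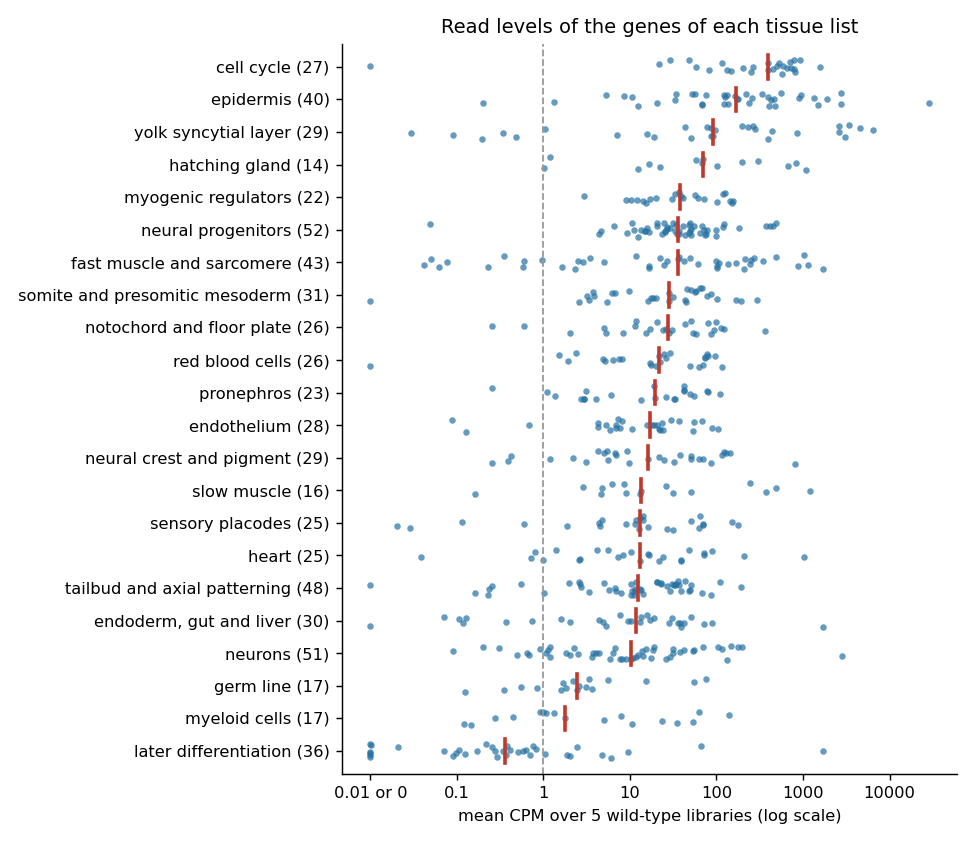
Mean CPM over the 5 wild-type libraries, on a log axis, of each gene in 22 tissue lists, with the number of genes in brackets. Points are genes, those at 0.01 CPM or below are drawn at the left edge, the red tick is the list's median and the dashed line marks 1 CPM. Cell cycle and epidermis genes have the highest medians, and genes of later differentiation, with a median of 0.358 CPM, the lowest.

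Genes of the presomitic mesoderm and somites were present almost without exception. 30 of 31 members of that list had at least 1 CPM in every library, with a median of 28.2 CPM. lfng, a glycosyltransferase that modifies Notch receptors, led with 304, 317, 279, 288 and 293 CPM in replicates 1 to 5. cdx4, a caudal factor of the posterior body, had 226, 170.4, 194, 179 and 200.1 CPM and meox1, a homeobox gene of early somites, 239.8, 127, 152, 146 and 183 CPM. All 3 were present in every library, and meox1 was lowest in replicate 2 and highest in replicate 1. The hairy-related gene hes6 averaged 102 ± 14.8 CPM and aldh1a2, which makes retinoic acid in somites, 85.3 ± 4.999 CPM.

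Genes of successive zones along the forming trunk were all measured. In the tailbud and presomitic mesoderm tbx16 averaged 67.2 ± 13.3, tbx6 56.0 ± 18.2 and msgn1 44.2 ± 2.47 CPM, and the retinoic acid breaking enzyme cyp26a1 28.2 ± 3.22 CPM. The oscillating clock genes her1 and her7 averaged 19.8 ± 4.45 and 18.2 ± 1.44 CPM, and the clock ligand dlc 77.6 ± 6.04 CPM. At the boundary, where the next somite is set, ripply1 had 28.2 ± 1.77, ripply2 6.23 ± 0.758 and the 4 mesp genes 3.34 to 5.41 CPM. In formed somites tcf15 averaged 64.5 ± 13.3, uncx4.1, a gene of the posterior part of each somite, 46.2 ± 12.6 and the sclerotome gene pax9 9.76 ± 0.886 CPM. Several of these genes were lowest in replicate 2, with tbx6 at 63.7, 28.2, 49.5, 62.2 and 76.5 CPM and her1 at 24.2, 12.3, 21.3, 20.7 and 20.5 CPM. For both of them, replicate 2 lay below the range of the other 4 libraries, 49.5 to 76.5 CPM for tbx6 and 20.5 to 24.2 CPM for her1.

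The genes that commit cells to muscle were present as a set. Each of 22 myogenic regulators and fusion genes had at least 1 CPM in every library, with a median of 37.5 CPM. Of the 4 myogenic bHLH factors, myog, which drives differentiation, had 156, 155, 138, 153 and 170.5 CPM, myod1 76.9, 65.2, 76.1, 66.0 and 76.6 CPM and myf5, an early factor, 49.1, 27.1, 32.96, 41.6 and 42.1 CPM, while myf6 averaged 2.92 ± 0.561 CPM. myog was above myod1, and myod1 above myf5, in each of the 5 libraries in reads. The adhesion genes for myoblast fusion, jam3b and jam2a, averaged 118 ± 10.2 and 60.7 ± 7.40 CPM, and the membrane activator of fusion tmem8c, myomaker, 56.7 ± 12.5 CPM. eya1 (150.04 ± 4.70 CPM), a cofactor of the sine oculis homeobox proteins, the splicing factor rbfox1l (142 ± 12.9 CPM) and mef2d (124 ± 11.6 CPM) were among the highest members. pax3a, pax7a and pax7b, genes of muscle precursors and neural crest, averaged 20.04 ± 1.72, 12.1 ± 1.92 and 30.4 ± 5.92 CPM.

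Slow muscle genes ranged from a highly abundant myosin to low regulators, with 15 of 16 at 1 CPM in every library. smyhc1, the first slow myosin heavy chain gene, had 1185, 1276, 1163, 1168 and 1270.4 CPM in replicates 1 to 5. Its neighbours smyhc2 and smyhc3, which are close copies and may share reads with it, averaged 31.7 ± 2.61 and 9.02 ± 2.33 CPM. The slow light chain genes myl10 and myl13 averaged 487 ± 18.9 and 369.8 ± 27.4 CPM, and slow troponin T tnnt1 243 ± 31.7 CPM. prdm1a and prox1a, regulators of the slow fibre, averaged 102 ± 12.3 and 13.1 ± 2.21 CPM. The engrailed genes of muscle pioneers, which mark the midbrain boundary too, lay between 4.58 CPM for eng2a and 50.2 CPM for eng2b.

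Sarcomere and fast fibre genes spanned a wide range, with 34 of 43 members at 1 CPM in every library. The actin genes actc1b (1713 ± 211 CPM), actc1a (1035 ± 256 CPM) and acta1a (875 ± 146 CPM) and the myosin chaperone hsp90aa1.1 (1132 ± 165 CPM) led. tpm4a, a tropomyosin gene, had 201, 229, 199.8, 203 and 197 CPM in replicates 1 to 5, with replicate 2 above the other 4. unc45b, the partner of the chaperone in folding myosin, averaged 345 ± 40.02 CPM. The fast light chain genes mylpfa and myl1 averaged 243 ± 81.5 and 167.8 ± 40.5 CPM, with mylpfa at 254, 375, 164, 191 and 229 CPM in replicates 1 to 5 and replicate 2 above the rest. Fast myosin heavy chain genes had fewer reads, myhz2 at 26.9 ± 5.59 and myhz1.1 at 22.002 ± 7.85 CPM, below smyhc1 in every library in reads of transcripts of the same family. Of the parvalbumin genes, which buffer calcium in mature fast fibres, pvalb2 averaged 2.51 CPM and pvalb3 0.352 CPM. pvalb1 averaged 0.0768 CPM and 0.0246 CPM without replicate 2, and pvalb4 0.0423 CPM and 0.0128 CPM without replicate 1, both under the floor. The calsequestrin gene casq1b was at 0.228 CPM. The myhz genes are close copies among which reads may be split.

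The notochord was represented by its matrix and its signals. col2a1a, the main fibrillar collagen of the notochord sheath, had 333, 306, 389.5, 428 and 375 CPM in replicates 1 to 5, and the list had 24 of 26 members at 1 CPM in every library. The other sheath collagens col2a1b, col8a1a, col9a1b and col9a2 averaged 111 ± 14.5, 98.04 ± 12.97, 94.1 ± 7.76 and 80.5 ± 6.89 CPM. ta, the Brachyury gene of tailbud and notochord, averaged 86.2 ± 16.5 CPM, and noto, which specifies notochord, 11.9 ± 0.947 CPM. Of floor plate genes, shha, the Hedgehog ligand, averaged 53.1 ± 7.66, the axon guidance gene ntn1a 123 ± 6.24 and foxa2 30.7 ± 2.102 CPM. matn3b, a gene of later cartilage matrix, was at 0.256 CPM.

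Genes of the tailbud and of body axis patterning included 41 of 48 at 1 CPM in every library. Besides cdx4, the non-canonical ligand wnt11r averaged 110.5 ± 8.22 CPM and wnt5b 36.9 ± 3.78 CPM, and fgf8a, the Fgf ligand of the tailbud and midbrain boundary, 43.43 ± 4.74 CPM. Of genes that act in the gastrula, the Nodal ligands ndr1 and ndr2 were at 0.232 and 0.256 CPM and the organizer gene gsc at 0.161 CPM. chd, the Bmp antagonist chordin of the organizer, was higher, at 25.2, 10.3, 19.3, 21.4 and 25.8 CPM in replicates 1 to 5, with replicate 2 below the other 4 libraries. wnt8a had 0 reads in every library, and so did wnt8-2, a reading frame of the same locus, and counts of such overlapping genes are uncertain. Of 48 hox genes 46 had at least 1 CPM in every library, and hoxb3a had the most reads, at 99.3 ± 5.78 CPM. The trunk genes hoxc8a and hoxa9a averaged 51.1 ± 1.72 and 49.4 ± 2.80 CPM, near the anterior hoxb1b at 50.9 ± 3.43 CPM, and hoxa13b and hoxd13a, of the last group, 7.78 ± 1.62 and 6.73 ± 0.324 CPM. These members were picked and give no order along the clusters. The 2 hox genes that did not reach 1 CPM in every library were hoxc12b, whose mean was 1.83 CPM, and hoxb13a, at 0.233 CPM.

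Neural progenitor genes were present with 1 exception of 52. The SoxB1 gene sox3 had 551, 512, 409, 461 and 525 CPM in replicates 1 to 5 and sox19a 402, 441, 376, 399 and 453 CPM, while sox2, of the same subgroup, had 30.1, 70.17, 39.02, 54.2 and 46.8 CPM. sox2 was lowest in replicate 1 and highest in replicate 2. sox11b and sox11a, SoxC genes of newly forming neurons, averaged 447 ± 47.7 and 372 ± 30.1 CPM. Regional genes were found for each level of the neural tube, with the forebrain genes six3b, rx1 and foxg1a at 68.2 ± 9.92, 73.9 ± 8.80 and 34.2 ± 3.76 CPM, the midbrain genes otx2 and pax2a at 35.1 ± 1.22 and 55.7 ± 5.82 CPM and the hindbrain genes mafba, egr2b and hoxb1b at 65.1 ± 3.77, 37.3 ± 3.36 and 50.9 ± 3.43 CPM. Genes of ventral domains, nkx6.1, nkx2.2a and olig2, averaged 25.6 ± 1.53, 15.5 ± 1.75 and 14.8 ± 1.57 CPM. The exception was egr2a, at 0.0489 CPM.

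Neuronal genes ranged from tubulins to genes of transmitter synthesis. 39 of 51 members had at least 1 CPM in every library. Besides tubb2b, the tubulin genes tuba1a and tuba1c averaged 199 ± 18.6 and 176 ± 6.75 CPM, and the Delta ligands dla and dlb, with which newborn neurons inhibit their neighbours, 148 ± 8.97 and 115 ± 6.59 CPM. The RNA-binding protein gene elavl3, a marker of postmitotic neurons, averaged 103 ± 6.82 CPM, the proneural gene neurog1 69.0 ± 10.5 CPM and isl1, of primary motor and sensory neurons, 37.5 ± 2.35 CPM. Of genes for making or carrying transmitters, the glutamate transporter slc17a6b was at 2.05, gad2 and gad1b, which make GABA, at 1.18 and 0.494, the glycine transporter slc6a5 at 0.676 and chata, which makes acetylcholine, at 0.908 CPM.

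Neural crest and placode genes were read at all stages up to the first pigment genes. Of the crest specifiers tfap2a averaged 142 ± 9.19, snai2 122 ± 10.2, foxd3 69.9 ± 6.64, sox10 51.2 ± 3.46 and twist1a 51.1 ± 1.05 CPM, with tfap2c, which acts with tfap2a, at 130.5 ± 9.54 CPM, while crestin, an RNA of premigratory and migrating crest, averaged 6.92 ± 1.67 CPM. paics, an enzyme of purine synthesis used by pigment cells and by every dividing cell, averaged 798 ± 77.5 CPM. mitfa, the melanophore regulator, averaged 3.13 ± 0.811 CPM, dct 5.37 ± 1.31 CPM and tyr, the rate-limiting enzyme of melanin synthesis, 0.391 CPM. gch2, of pteridine synthesis in yellow pigment cells, had 5.07, 21.4, 3.59, 8.01 and 7.88 CPM in replicates 1 to 5, with replicate 2 far above the other 4. Of 25 placode genes 21 had at least 1 CPM in every library, led by the claudin cldnb (178 ± 6.99 CPM) and by eya1, with mab21l2, of the eye, at 69.3 ± 7.93 CPM, and the lens crystallin genes cryba4 and cryaa were at 1.88 and 0.0204 CPM.

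Epidermal genes gave the highest counts of all tissue lists besides the cell cycle list by median. 38 of 40 had at least 1 CPM in every library, with a median of 167 CPM. After krt4 and krt5 came the keratin genes cyt1l (2748 ± 274 CPM), cyt1 (1879 ± 156 CPM), krt8 (1483 ± 87.1 CPM) and krt18 (1335 ± 120.2 CPM). anxa1c, an annexin, averaged 948 ± 95.4 CPM, and the desmosome and cornified envelope genes jupa, ppl and evpla 555 ± 18.2, 462 ± 53.3 and 237 ± 31.8 CPM. tp63, the regulator of basal keratinocytes, averaged 172 ± 9.17 CPM, cdh1 259 ± 14.9 CPM and epcam 397 ± 46.7 CPM. The ionocyte regulators foxi3a and foxi3b averaged 33.8 ± 3.83 and 10.6 ± 1.09 CPM. icn, a calcium-binding S100 protein gene of the outer layer, had 42.0, 99.5, 64.3, 72.5 and 63.7 CPM in replicates 1 to 5, lowest in replicate 1 and highest in replicate 2.

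The hatching gland, which stores proteases that later dissolve the egg envelope, gave high counts from few genes. he1a and he1b, hatching enzyme genes that are near-identical and may share reads, averaged 828 ± 87.7 and 305 ± 49.0 CPM, and ctslb, a cathepsin of the gland, 1083 ± 103 CPM. xbp1, a regulator of secretory cells, averaged 663 ± 40.5 CPM and klf17, which specifies the gland, 68.5 ± 7.43 CPM. A second enzyme gene, he2, was at 23.5, 13.1, 8.47, 12.3 and 4.79 CPM in replicates 1 to 5. Replicate 1 was the highest library for he2 and replicate 5 the lowest.

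Red blood cell genes were measured almost in full and myeloid genes in part. 24 of 26 erythroid genes had at least 1 CPM in every library, with the heme synthesis genes urod, cpox and alas2 at 117 ± 6.45, 62.5 ± 7.20 and 26.3 ± 3.44 CPM. The embryonic globins hbae3, hbae1 and hbbe3 averaged 95.9 ± 19.4, 77.1 ± 11.1 and 74.5 ± 14.5 CPM, and hbbe1.1 had 25.2, 4.38, 24.8, 21.2 and 10.3 CPM, low in replicates 2 and 5. znfl2a, a zinc finger gene of the intermediate cell mass, averaged 79.3 ± 7.21 CPM. The globins are close copies among which reads may be split. gata1a, the erythroid master regulator, had 27.2, 11.2, 18.7, 22.6 and 19.8 CPM. drl, a zinc finger gene of early blood and lateral mesoderm with near-identical neighbours, had 0 reads, below 0.134 to 0.161 CPM in each library. Of 17 myeloid genes 9 had at least 1 CPM in every library, with cebpa at 138 ± 21.8 CPM, cebpb at 63.2 ± 2.48 CPM and the chemokine receptor cxcr4b at 53.9 ± 4.27 CPM, which are all expressed beyond blood, nccrp1 at 35.1 ± 1.91 CPM, spi1b, the myeloid master regulator, at 7.88 ± 0.639 CPM, and the granule enzymes lyz and mpx at 0.275 and 0.44 CPM. mpx had 1.66, 0.191, 0.107, 0.204 and 0.0448 CPM, so that replicate 1 gave most of its reads.

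Vessel, heart and kidney genes were present at moderate counts. In the endothelial list 25 of 28 genes had at least 1 CPM in every library, led by tal1 (105 ± 6.78 CPM), lmo2 (88.6 ± 5.47 CPM), etv2 (67.2 ± 6.199 CPM) and fli1a (54.3 ± 3.85 CPM), which act in the shared precursors of vessels and blood. The VEGF receptors kdr, flt4 and kdrl averaged 36.7 ± 6.92, 30.1 ± 4.97 and 24.1 ± 1.55 CPM, and the junction gene cdh5 6.95 ± 0.93 CPM. Heart genes had 20 of 25 members at 1 CPM in every library. The cardiac regulators gata5 and gata6, which act in endoderm and the yolk syncytial layer too, averaged 88.0 ± 11.9 and 71.9 ± 19.8 CPM, hand2 39.4 ± 2.77 CPM and nkx2.5 4.16 ± 0.538 CPM. The first cardiac sarcomere genes, vmhc, myl7 and cmlc1, averaged 39.002 ± 5.09, 16.5 ± 4.03 and 13.1 ± 2.12 CPM, and atrial myh6 1.40 CPM. In the pronephros, the embryonic kidney, 21 of 23 genes passed, with cdh17 at 109 ± 14.3, atp1a1a.4 at 76.9 ± 10.4, the transporter slc12a3 at 42.1 ± 6.05 CPM and podxl, a coat protein of podocytes and vessels, at 80.8 ± 5.04 CPM.

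Of 30 genes of endoderm, gut and liver 23 had at least 1 CPM in every library, with a median of 11.7 CPM. fabp2, an intestinal type fatty acid binding protein, averaged 1681 ± 213 CPM, foxa3, a factor of gut and prechordal tissue, 50.2 ± 6.19 CPM, and hnf4a and hnf4b 18.8 ± 5.21 and 36.02 ± 7.97 CPM. fabp2 had 1498, 1469, 1990, 1684 and 1764 CPM in replicates 1 to 5, highest in replicate 3 and lowest in replicate 2, as apoeb was. Which tissue its reads came from was not tested. The pancreas and liver regulators pdx1 and hhex averaged 5.26 ± 0.522 and 4.94 ± 1.17 CPM, ptf1a 0.74 CPM and insulin, ins, 0.373 CPM. The endoderm specifiers of the gastrula, sox32 and sox17, were at 0.119 and 0.127 CPM.

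The yolk syncytial layer list held 23 of 29 genes at 1 CPM in every library with a median of 91.6 CPM. Besides the apolipoproteins given above, apobb.1, the structural protein of the lipoprotein particle, had 2059, 2381, 3137, 3146 and 2413 CPM in replicates 1 to 5 and apoa2 2168, 2652, 3076, 2551 and 2683 CPM. apoa4b.1 averaged 858 ± 191, the retinol carrier rbp4 277 ± 32.5 and the fibrinogen chains fga, fgb and fgg 43.1 ± 4.90, 86.1 ± 15.4 and 86.3 ± 8.25 CPM. The plasma and yolk protein genes of the list under 1 CPM were transthyretin, ttr, at 0.0907 CPM, gc, the vitamin D carrier, at 0.483 CPM, and the vitellogenins vtg1 and vtg2 at 0.343 and 0.0298 CPM. mxtx1, a gene of this layer, averaged 7.16 ± 2.06 CPM, and mxtx2, which acts at blastula stages, 0.196 CPM.

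Germ line genes, which act in a small group of cells, were measured at low counts. 12 of 17 had at least 1 CPM in every library, with a median of 2.42 CPM. The germ plasm gene ddx4, vasa, had 2.88, 2.43, 1.02, 1.53 and 3.001 CPM in replicates 1 to 5, nanos3 4.11, 4.72, 1.29, 2.45 and 2.82 CPM and dnd1 1.98, 1.24, 1.82, 1.17 and 2.19 CPM. All 3 had reads in every library and lay between 1 and 5 CPM. nanos1 and the Vg1 ligand gene gdf3, which are expressed beyond germ cells, averaged 75.8 ± 7.07 and 15.4 ± 1.49 CPM, gra 5.59 ± 0.815 CPM and the oocyte gene buc 0.123 CPM.

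Genes of dividing cells held the highest median of all lists, 399 CPM. pcna, the sliding clamp of replication, averaged 1572 ± 84.9 CPM, the ribonucleotide reductase genes rrm1 and rrm2 932 ± 30.7 and 730.4 ± 62.6 CPM, mki67 780.4 ± 40.9 CPM, and the 6 genes of the replicative helicase lay between 495 CPM for mcm7 and 802 CPM for mcm2, with mcm3 at 781 CPM. Of the mitotic genes ccnb1 averaged 263 ± 6.84, plk1 452 ± 31.3 and cdc20 204 ± 28.3 CPM. The summed level of the list varied little, at 11898, 11744, 11492, 11594 and 11873 CPM in replicates 1 to 5. Of 26 genes at 5 CPM or more, 13 were highest in replicate 1, against 30.0% of all genes. cdc20 (254 CPM there) and plk1 (507 CPM there) lay far above the other libraries.

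Genes of later differentiation were mostly at or near the floor. Of 36 members 27 averaged under 1 CPM and 5 had no read in any library, which are rho (rod opsin), gh1 (growth hormone), cpa5 (a pancreatic carboxypeptidase), crygm2d1 (a lens crystallin) and col10a1a (a collagen of hypertrophic cartilage). For each of these, 0 reads leaves a level of up to 0.134 to 0.161 CPM in a library, counting error only. The liver gene fabp10a was at 0.0702 CPM, the pancreatic protease genes ela3l and cpa1 at 0.256 and 0.0981 CPM and the pituitary hormone gene prl at 0.416 CPM. The 8 that passed were fabp2, mbpb (66.9 ± 2.65 CPM), pde6c (9.60 ± 2.80 CPM), mpz (5.98 ± 0.823 CPM), cryba2b, cryba1l1, gcga and try. mbpb carries the name of myelin basic protein and was steady, at 67.6, 65.3, 70.32, 68.0 and 63.4 CPM.

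The 18 families of transcription factors taken here had a larger share of detected genes than the whole table. These families, like the signalling, junction and matrix families below, were put together after values were seen. Their shares therefore describe the families taken and not transcription factors in general. Of 296 genes in 18 families, 254 (85.8%) had at least 1 CPM in every library, against 73.4% of all genes. Their median was 16.1 CPM, against 14.2 CPM over all genes, and 17 averaged 100 CPM or more. Every Zic gene (7 of 7), every Dlx gene (8 of 8) and each myogenic bHLH gene (4 of 4) passed, while 19 of 24 Sox, 15 of 20 T-box, 13 of 17 LIM homeobox, 10 of 14 Pou and 8 of 11 Irx genes did. Of the Zic genes, which act in the dorsal neural tube and somites, zic2b averaged 184 ± 8.15 CPM and zic6 17.6 ± 2.91 CPM. The highest Fox gene was foxp4 (101 ± 14.3 CPM), the highest Pax gene pax6a of eye and neural tube (74.8 ± 7.31 CPM), the highest T-box gene ta, the highest Gata gene gata5 and the highest Pou gene pou3f3b of the nervous system (147 ± 11.96 CPM). Among the hairy-related genes her9 (172 ± 30.2 CPM), her6 (108 ± 13.9 CPM) and hes6 were above the oscillating her1 and her7 in every library in reads. snai1a and snai2, regulators of cell movement, averaged 115 ± 18.2 and 122 ± 10.2 CPM and snai1b 4.27 ± 0.651 CPM. LIM homeobox genes, of which many mark single neuron classes, had the lowest median of the 18 families, 4.09 CPM.

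Of 98 genes in 8 signalling families 74 (75.5%) had at least 1 CPM in every library, close to the 73.4% of all genes. Receptor families had higher medians than the Wnt, Fgf, Hedgehog and Bmp ligand families. All 12 Frizzled receptor genes, all 5 Fgf receptor genes and all 4 Notch receptor genes had at least 1 CPM in every library, with medians of 49.1, 107 and 87.0 CPM. Of the ligands 14 of 21 Wnt genes, 15 of 29 Fgf genes, 4 of 5 Hedgehog genes and 12 of 14 Bmp genes passed, with medians of 6.09, 1.55, 6.31 and 12.03 CPM. These medians compare reads of genes of different length. Delta and Jagged ligands were nearer the receptors, with 8 of 8 passing and a median of 67.9 CPM. Among receptors fzd7a averaged 463 ± 29.2, fgfr4 229.8 ± 7.42 and notch1a 119.9 ± 11.9 CPM. The ligand with most reads was dla for the Delta and Jagged genes, with jag2b at 138 ± 5.76 CPM, wnt11r for the Wnt genes, bmp3 (63.4 ± 4.19 CPM) for the Bmp genes, shha for the Hedgehog genes and fgf8a for the Fgf genes. dhh, another Hedgehog gene, was at 0.0204 CPM.

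Of 81 genes in 4 families of junction and matrix genes 47 (58.0%) had at least 1 CPM in every library, against 73.4% of all genes. Of 28 connexin genes 7 passed, and cx43.4, the gap junction gene of the early embryo, led with 501 ± 30.6 CPM against a family median of 0.711 CPM. Of 30 claudin genes 21 passed, led by cldni (404 ± 24.4 CPM) and cldne (222 ± 17.6 CPM), which seal the outer epithelium. All 9 laminin genes passed, with lamb1a at 648 ± 105 CPM and lama1 and lamc1, subunits of the notochord basement membrane, at 81.6 ± 18.4 and 53.0 ± 11.98 CPM. Of 14 integrin genes 10 passed, and the fibronectin receptor gene itga5, needed at somite boundaries, averaged 121 ± 8.42 CPM.

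Use of duplicate genes was compared within libraries for pairs whose symbols differ in a final a and b. The table holds 1475 such pairs, and 1208 had a summed mean of at least 5 CPM. In 832 (68.9%) of these the mean log2 ratio over the 5 libraries was at least 2-fold and the same member led in every library, computed on CPM with 0.5 CPM added. Of these 832 pairs the a member led in 474 and the b member in 358. In 738 pairs (61.1%) the ratio was at least 2-fold in each of the 5 libraries. In 369 pairs (30.5%) the leading member held over 90% of the reads, and the median leading share was 78.6%. Direction was the same in 5 of 5 libraries for 1116 pairs and differed between libraries for 92. The lengths of the 2 transcripts were not used, so a share is a share of reads, and a difference of up to the ratio of the lengths can come from length alone. Reads that match both members may have been left out or shared, as the sources used here do not say how such reads were counted.

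**Figure D3:**
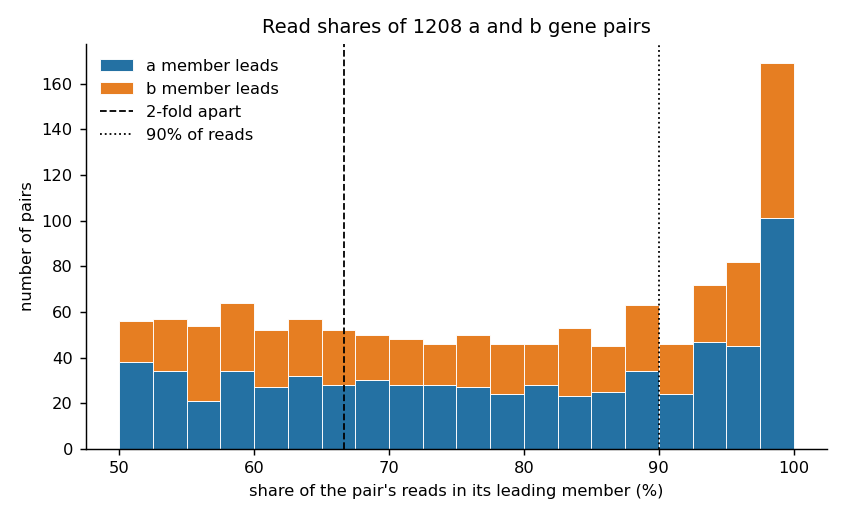
Share of a pair's reads held by its leading member, averaged over 5 wild-type libraries, for 1208 pairs of genes ending in a and b, in steps of 2.5 percentage points with the a-led and b-led pairs stacked. The dashed line marks 2-fold and the dotted line 90%, past which 369 pairs lie, and the highest column is the one nearest 100%.

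Not every such pair is a product of duplication, since a and b name subunits or separate genes in some. Without 91 pairs whose letters name subunits or family members, 781 of 1117 (69.9%) were at least 2-fold apart. Of the 1207 pairs with a known chromosome in the RefSeq table, 37 lay on the same chromosome and 1170 on different ones. Among the 114 pairs with a member in a tissue list, 75 (65.8%) were at least 2-fold apart and 32 (28.1%) had a leading share over 90%, close to the shares over all pairs.

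At the top of the read counts, pairs ranged from 1 dominant member to equal reads. apoa1a held 64.3, 56.0, 53.9, 55.9 and 58.2% of the reads of apoa1a and apoa1b in replicates 1 to 5. The highest share was in replicate 1, where apoa1b was lowest. hmga1a held 99.95% of the reads of its pair, so that hmga1b had 3.43 CPM, and apoea held 0.251%, with 15.7 CPM against 6455 CPM of apoeb. Leading shares were smaller for hmgb2a at 74.1%, for cirbpa, a cold-inducible RNA-binding protein gene, at 68.2% and for glula, of glutamine synthesis, at 71.5%. hnrnpaba at 51.1% and seta at 48.7% of their pairs were near equal, and khdrbs1a, an RNA-binding protein gene, held 94.2%. The sarcomeric actin gene actc1a held 41.9, 31.8, 36.2, 39.8 and 37.003% in replicates 1 to 5, so that actc1b led in every library.

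The most unequal pairs with one direction in every library were nearly silent in 1 member. cd81a, a tetraspanin gene, held 99.96% of the reads of its pair, ctsba, cathepsin B, 99.99%, ldhba, lactate dehydrogenase B, 99.95%, and the ribosomal protein gene rps8a 99.9%. The cohesin gene rad21a held 99.9%. For moesin, msna had 349 CPM and msnb 0.00896 CPM, and for a kinase downstream of p38, mapkapk2a had 258 CPM and mapkapk2b 0.0102 CPM. In the other direction slc25a3a, a phosphate carrier gene, held 0.0701%, and h2afva had 0 reads beside 529.5 CPM of h2afvb, both histone H2A variant genes. In 12 pairs 1 member had no read in any of the 5 libraries.

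Near-equal pairs included the ephrin receptor genes ephb4a and ephb4b, where ephb4a held 46.9, 50.4, 50.5, 53.1 and 49.3% of the reads in replicates 1 to 5, and the 14-3-3 genes ywhaba and ywhabb, where ywhaba held 50.2%. atp5g3a held 49.8% of its pair, which encodes the ring subunit of ATP synthase. etfa held 49.9% beside etfb and c8a 49.8% beside c8b. These last 2 pairs are subunits of 1 complex and not duplicates of each other, the electron transfer flavoprotein and complement component 8.

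The 18 transcription factor families hold 38 pairs with both members at 5 CPM or more, and the SD of their log2 ratio over the 5 libraries had a median of 0.166, against 0.185 over all 776 such pairs. The least steady were klf11a, which held 50 to 81.6% of its pair's reads, and sox9a, of cartilage and crest, which held 61.2 to 81.8%. For transcription factors of the nervous system, pax6a held 66.3 to 71.0% of its pair's reads, six3a 24.3 to 28.5%, otx1a 40.6 to 44.1%, sox11a 42.4 to 47.0%, zic2a 38.01 to 40.99% and sox21a 69.7 to 72.8% over the 5 libraries. sox19a (93.7 to 94.7%) and dbx1a (83.4 to 89.1%) led more strongly, and eng2a held 7.75 to 9.28%, so that eng2b led. egr2a held at most 0.282% in a library. Of crest and somite regulators, snai1a held 94.7 to 97.4%, twist1a 86.4 to 89.8%, foxc1a 62.7 to 66.7% and pax7a 21.9 to 32.9%. Near-equal were six1a (47.7 to 55.6%) and six4a (45.5 to 59.3%), and the 2 members of either pair exchanged the lead between libraries.

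Signalling and structural pairs, picked by name and not counted, included both unequal and more balanced ones. shha held 83.3 to 88.9% of the reads of shha and shhb, ntn1a 79.3 to 84.7%, notch1a 70.29 to 77.3%, aplnra 68.2 to 73.5% and fzd7a 71.9 to 74.1%. In muscle mylpfa held 98.8 to 99.6%, acta1a 56.2 to 67.9%, ckma 42.4 to 44.9% and actn3a 24.7 to 37.1%. In the notochord sheath col2a1a held 73.3 to 78.9%, while col9a1a held 1.47 to 3.25% and left col9a1b in the lead. tnnc1a held 9.06 to 9.61% and spi1a 7.19 to 17.2%.

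A few pairs shifted their balance between libraries. The largest SD of the log2 ratio was that of ahsa1a and ahsa1b, cochaperones of Hsp90, where ahsa1a held 0.0834, 7.96, 4.097, 6.15 and 6.60% of the reads in replicates 1 to 5. ahsa1a was at 0.16 CPM in replicate 1, against 6.27 to 13.6 CPM in the others. cant1a held 92.6, 60.7, 54.0, 64.3 and 60.2% of its pair, again with replicate 1 apart, where cant1b, a nucleotidase gene, had 4.65 CPM against 36.3 to 47.5 CPM. loxl2a, a lysyl oxidase gene, held 10.1, 39.7, 16.1, 12.4 and 27.6%, highest in replicates 2 and 5, and phb2a, of the mitochondrial prohibitin complex, held 16.5, 27.3, 9.35, 12.3 and 27.5%, again highest in replicates 2 and 5. chchd3a, of the mitochondrial inner membrane, held 78.3, 43.2, 52.8, 47.2 and 47.5%, and led in 2 of the 5 libraries.

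The 5 libraries differed little for most genes. For 9287 genes with a mean of at least 5 CPM, a biological CV was computed, the CV among libraries after taking off the part that counting gives. Its median was 0.0838, and 60.6% of genes were under 0.1. 432 genes (4.65%) were over 0.25 and 42 (0.452%) over 0.5. The median CV was 0.132 for genes of 5 to 10 CPM, 0.0861 for 10 to 100 CPM, 0.0626 for 100 to 1000 CPM and 0.0671 above that. None of the 109 genes at 1000 CPM or more was over 0.5.

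**Figure D4:**
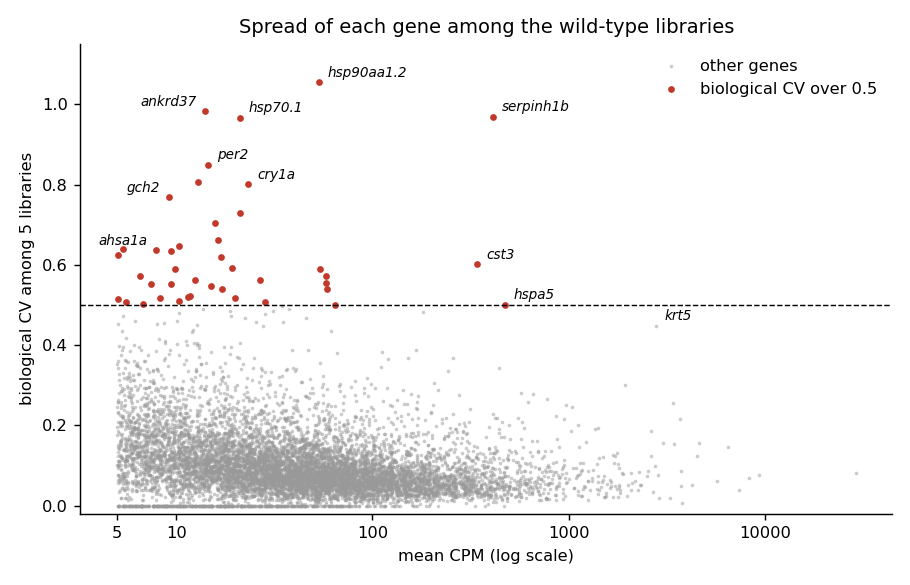
Biological CV among the 5 wild-type libraries against mean CPM, on a log axis, for 9287 genes with a mean of at least 5 CPM. Each point is a gene, the dashed line marks 0.5, and the 42 genes above it are in red. Heat shock, clock and hypoxia genes with replicate 1 far above the rest lie at the top, and serpinh1b, cst3 and hspa5 are the 3 red points above 100 CPM.

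Among genes with a mean of at least 100 CPM, the lowest total CVs were those of slc25a5, fbl, cox7b, api5 and wdr33. fbl, fibrillarin of the nucleolus, had 467, 462, 473, 466 and 467 CPM in replicates 1 to 5, and cox7b, a cytochrome oxidase subunit, 167.1, 163, 166, 166 and 165 CPM. The 5 libraries lay within a few percent of each other for both. Of the tissue lists, the genes of neurons (median biological CV 0.0608) and the cell cycle (0.0569) were the steadiest. Those of fast muscle (0.173), the yolk syncytial layer (0.156) and red blood cells (0.149) were the least steady. The lists differed in level and were not matched for it, and the CV differed with level as given above. Of 443 distinct list genes with at least 5 CPM, 33 (7.45%) were over 0.25 against 4.65% of all genes, and 4 were over 0.5, which are apoea, gch2, hbbe1.1 and he2.

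Of the 42 genes over 0.5, 9 have clone-type symbols and 33 have names. The highest library was replicate 1 for 21 of the 42, replicate 2 for 10, replicate 3 for 8, replicate 4 for 1 and replicate 5 for 2. The lowest library was replicate 1 for 19 of them and replicate 2 for 11. Over all 9287 genes, replicates 1 to 5 were the highest library for 30.0, 21.3, 18.4, 14.4 and 15.9%. Replicates 1 and 2 were the lowest for 26.3 and 24.0% of all genes. Without replicate 1, 15 genes were over 0.5. The 2 highest libraries were replicates 2 and 5 for 10 of the 42 genes (23.8%), against 13.3% of all 9287 genes. They were replicates 1 and 3 for 9 (21.4%), against 10.1%, and replicates 3 and 4 for 1. This depended on the limit. Of the 432 genes over 0.25, replicates 3 and 4 were the 2 highest for 81 (18.8%), against 11.7% of all genes. Replicates 2 and 5 were so for 75 (17.4%). Of 425 genes over 0.25 with a following neighbour in the RefSeq order, 33 (7.76%) had a neighbour over 0.25 too, where 4.61% of the genes with a place are over 0.25, and the closely related myhz1.2 and myhz1.1 were 1 such pair.

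Replicate 1 was apart from the other libraries in some heat shock, ER chaperone, clock and hypoxia genes. It was the highest library and at least 2-fold above the median of the other 4 for 34 genes (0.366%), and the lowest and at least 2-fold below for 55 (0.592%). The matching counts were 7 (0.0754%) and 17 (0.183%) in replicate 2, 9 (0.0969%) and 9 (0.0969%) in replicate 3, 0 and 3 (0.0323%) in replicate 4 and 1 (0.0108%) and 2 (0.0215%) in replicate 5. High and low genes together numbered 89, 24, 18, 3 and 3 in replicates 1 to 5, and with 20 CPM in place of 5 CPM as the lowest mean they numbered 35, 9, 3, 0 and 1.

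Of heat shock genes, hsp90aa1.2 had 153 CPM in replicate 1 and 19.7 to 39.3 CPM in the other 4 libraries, hsp70.1, an inducible Hsp70, 57.3 and 8.07 to 13.6 CPM, and serpinh1b, the collagen chaperone Hsp47, 1123 and 209 to 255 CPM. dnajb1b, an Hsp40 cochaperone, had 178 and 83.8 to 103 CPM. The abundant hsp90ab1 was highest there by little, at 2945, 2802, 2851, 2922 and 2919 CPM in replicates 1 to 5. hspb1, a small heat shock protein gene, had its lowest value in replicate 1, 426 CPM against 429.8 to 558 CPM. Of 29 heat shock and chaperone genes at 5 CPM or more, 17 were highest in replicate 1, where 30.0% of all genes had their highest value. hsp70.1 and hsp70l are near copies, and hsp90aa1.1 and hsp90aa1.2 neighbours of like sequence, so their reads may be split.

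Some ER chaperone genes were also high in replicate 1. hspa5, BiP, had 889, 326, 348, 397 and 395 CPM in replicates 1 to 5, hsp90b1, Grp94, 115, 37.5, 44.9, 51.3 and 40.8 CPM and pdia4, a protein disulfide isomerase, 83.6, 37.2, 37.9, 37.5 and 31.9 CPM. In each, replicate 1 lay above the other 4. atf6, a sensor of the unfolded protein response, had 14.5 CPM in replicate 1 and 23.3 to 25.4 CPM in the others, in the opposite direction. xbp1, also in this list, had 689, 595, 698, 671 and 663 CPM in replicates 1 to 5 and was highest in replicate 3. Of 34 genes of this list at 5 CPM or more, 22 were highest in replicate 1, against 30.0% of all genes.

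Some clock and light-induced genes were high in the same library. per2 had 36.8, 8.48, 9.43, 8.73 and 9.50 CPM in replicates 1 to 5, cry1a 56.8, 13.2, 16.6, 15.6 and 14.6 CPM and cry2b 39.3, 12.2, 12.2, 16.999 and 15.3 CPM. All 3 encode repressors of the circadian clock, and in each the other 4 libraries lay close together, far below replicate 1. Not every cryptochrome gene showed such a gap, as cry3 was at 38.9 CPM in replicate 1 and 36.2 to 39.8 CPM in the others. Of activators rorcb had 8.33 CPM in replicate 1 and 2.45 to 4.95 CPM in the others, while core activators showed no such gap, with arntl1a at 26.8 and 23.9 to 28.4 CPM and clockb at 24.03 and 25.03 to 28.8 CPM in replicate 1 and the others. tefa, an activator under clock and light control, had 214 and 115 to 141 CPM and xpc, of DNA repair, 38.5 and 23.2 to 25.4 CPM. Of 27 genes at 5 CPM or more, 16 were highest in replicate 1, against 30.0% of all genes.

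Of 27 genes of the hypoxia list at 5 CPM or more, 18 were highest in replicate 1, against 30.0% of all genes. Besides hypoxia-induced genes the list holds parts of the Hif pathway, such as hif1ab, hif1an and vhl, each highest in replicate 1. egln3, a prolyl hydroxylase that marks Hif for decay, had 31.2 CPM in replicate 1 and 5.16 to 11.2 CPM in the others, ankrd37 38.4 and 5.16 to 12.3 CPM, and ddit4, an inhibitor of mTOR, 110.4 and 34.97 to 46.9 CPM. vegfaa, the growth factor gene, had 5.61 and 8.47 to 10.1 CPM, and so was lowest in replicate 1. Other genes of the list lowest there were pfkfb4a (9.93 and 13.8 to 16.3 CPM), pfkfb4b (47.5 and 49.3 to 76.8 CPM), bnip3la, p4ha1a and mxi1. The summed levels of the 4 lists in replicate 1 and in the other 4 libraries were 18981 and 15600.1 to 17413 CPM for heat shock, 6098 and 4624 to 5029 CPM for ER chaperones, 1066 and 776 to 802 CPM for the clock and 2062 and 1620.1 to 1722 CPM for hypoxia. These 4 lists were put together after the variable genes were seen, so their counts describe replicate 1 and support nothing further. What set replicate 1 apart was not tested.

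**Figure D5:**
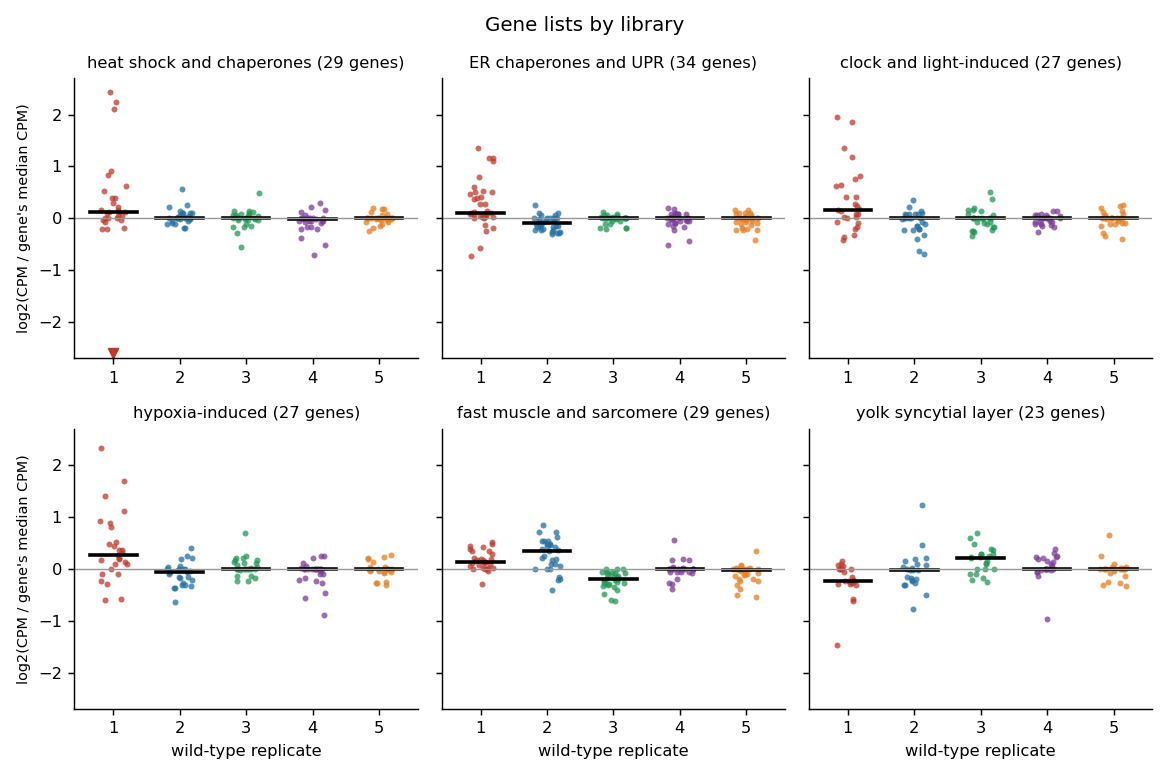
Log2 of CPM over the gene's median CPM in each of the 5 wild-type libraries, for genes with a mean of at least 5 CPM in 6 lists, with a point per gene and a bar at the list's median. In the 4 stress and clock lists the points of replicate 1 reach furthest up, fast muscle genes are highest in replicate 2, and yolk syncytial layer genes are highest in replicate 3 and lowest in replicate 1. The triangle marks ahsa1a, at 0.16 CPM in replicate 1, which lies below the axis.

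Genes that were low in replicate 1 included several of the yolk syncytial layer, described above and below, and hdac10, a histone deacetylase, at 2.62, 20.6, 18.2, 11.1 and 23.1 CPM in replicates 1 to 5, schip1 at 2.35, 12.4, 16.7, 9.09 and 16.6 CPM and sall4, a zinc finger regulator of the posterior body, at 18.3, 90.2, 65.7, 49.98 and 98.8 CPM. slc6a11a, a GABA transporter gene, was at 4.38, 43.1, 14.04, 13.7 and 30.9 CPM, with its highest value in replicate 2. For sall4 and slc6a11a the order of the libraries was alike at both ends, with replicates 2 and 5 highest and replicate 1 lowest. The splicing factor srsf5a had 171, 526, 500.2, 510.4 and 501 CPM, and rsrp1, another arginine and serine rich protein gene, was high in replicate 1, at 115, 52.4, 50.1, 38.7 and 33.01 CPM.

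Replicate 2 had the highest value of most fast muscle genes and the lowest sum of several tissue lists. Of 29 fast muscle and sarcomere genes at 5 CPM or more, 20 were highest in replicate 2, where 21.3% of all genes had their highest value. myl1 had 172, 235, 129, 148 and 154 CPM in replicates 1 to 5, atp2a1, the sarcoplasmic calcium pump, 233, 323, 213, 264 and 205 CPM and ryr1b, the calcium release channel, 11.6, 23.4, 14.2, 20.9 and 13.4 CPM. The summed level of the list followed the abundant actin genes instead, at 8907, 8347, 6569, 7387 and 8012 CPM, highest in replicate 1 and lowest in replicate 3. Genes of somites and presomitic mesoderm gave the lowest sum in replicate 2, with 1778, 1388, 1497, 1493 and 1644 CPM. The somite gene with most reads, lfng, was instead highest in replicate 2. Lists of tailbud, notochord, neurons, neural crest, endothelium, myeloid cells, heart, pronephros, endoderm and later differentiation also had their lowest sum there. A sum follows the genes with most reads, so a low sum does not show that most genes of a list were low. At 5 CPM or more, 11 of 32 neuron genes and 8 of 22 neural crest genes were highest in replicate 2. The highest sum was 1.40 times the lowest for heart genes and 1.28 times for somite genes. actc1a alone averaged 1035 of the mean heart sum of 1736 CPM, with 1425, 807, 802, 1076 and 1067 CPM in replicates 1 to 5. In replicate 2 the median log2 of CPM over the gene's median CPM was -0.0046 for heart and -0.122 for somite genes. The genes farthest from the other libraries in replicate 2 were hbbe1.1, loxl2b and bco2l, an enzyme that cleaves carotenoids, at 35.3, 9.38, 46.7, 30.1 and 19.5 CPM. What set replicate 2 apart was not tested.

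Replicate 3 had the highest sum of yolk syncytial layer genes. Yolk syncytial layer genes summed to 21256, 23984, 31009, 27203 and 25993 CPM in replicates 1 to 5, and 12 of 23 were highest in replicate 3, where 18.4% of all genes had their highest value. Among the most variable genes, chosen for their spread, dhcr7, an enzyme of the end of cholesterol synthesis, had 4.70, 11.5, 33.02, 20.1 and 12.2 CPM, cyp2x6, a cytochrome P450, 2.35, 5.53, 18.1, 9.75 and 11.3 CPM and scp2a, a sterol carrier protein, 23.4, 28.9, 70.05, 35.2 and 31.1 CPM. In all 3, replicate 3 was the highest library. cst3, a cystatin that inhibits cathepsins, ran the other way, at 572, 514, 89.0, 196 and 332 CPM, with replicate 3 lowest. phospho2, a phosphatase gene, was low there too, at 9.56, 9.05, 3.06, 7.66 and 8.82 CPM. ctsc, cathepsin C, had 1902, 1075, 2612, 2325 and 1796 CPM and was highest in replicate 3 and lowest in replicate 2. Fast muscle genes gave their lowest sum in replicate 3.

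Replicates 4 and 5 had few genes far from the other libraries. Farthest from the others in replicate 4 were spryd7a, at 3.47, 18.7, 10.2, 4.08 and 15.4 CPM in replicates 1 to 5, pklr, pyruvate kinase of liver and red cells, at 4.59, 16.4, 15.9, 5.31 and 16.3 CPM, and znf1005, a zinc finger gene, at 4.38, 9.38, 6.22, 2.35 and 8.38 CPM. For spryd7a and pklr, replicate 1 was lower still. Replicate 4 was the highest or lowest library and at least 2-fold from the median of the other 4 for 3 genes, and replicate 5 for 3 genes. Among the 42 genes with a biological CV over 0.5, replicate 5 often lay with replicate 2. Examples were apoea at 4.86, 31.8, 13.5, 6.94 and 21.3 CPM, and loxl2b at 41.8, 9.19, 27.9, 41.4 and 13.9 CPM in the opposite direction. Replicate 4 lay with replicate 1 for both of these genes, among the low libraries of apoea and the high libraries of loxl2b.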

How the data were processed

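Reads from whole embryos were processed by the authors before deposit. Per the submitters' processing notes the tools were cutadapt 3.4, STAR 2.7 and DESeq2 1.30.0, and 2 genome builds are named there, danRer10 (zebrafish) and mm10 (mouse), with no role for either. Not given in the sources used here are the counting program, the annotation, the strand setting and the treatment of reads that match several genes, so near-identical copies and overlapping antisense genes cannot be told apart. As deposited by the authors, the table gives for each gene symbol the unnormalised count in each of 10 libraries, and the 5 wild-type columns were used. The deposited comparison of genotypes was not used.

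Counts were scaled with TMM over the 5 libraries (edgeR 4.0.16, R 4.3.3) and given as CPM. Means and SD are over 5 libraries. The biological CV is the square root of the squared CV less the part that Poisson counting gives, for genes with a mean of at least 5 CPM. Simulated counts with known CVs were used to test the script, and the median estimate from 5 libraries lay somewhat under the true CV. Pairs are genes whose symbols differ in a final a or b, with 0.5 CPM added before the ratio. The design planned ratios corrected for length and a limma test of them, and these were not made without transcript lengths. The floor is 3 reads a library and covers counting error only. Symbols were matched with the RefSeq gene table of assembly GRCz12tu, which served for older symbols, gene order and chromosomes, and 655 of 738 list entries matched. Gene order came from the start positions in that table, whose assembly differs from the danRer10 build named in the processing notes. No sequences were used.

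Marker lists, gene classes and the rule for named genes were chosen with earlier results of these data known. The rule names the 20 genes of highest mean CPM, the 4 highest members of each list and members with no read, the 10 pairs of highest reads, the 10 most unequal and the 5 most equal pairs, the 20 most variable genes and the 3 genes farthest from the others in each library, with clone-type symbols left out. Of the genes named, 162 came from the rule and 248 were chosen after their values were seen. The families, the 4 response lists and the pairs set aside as subunits were also put together after values were seen. 1 gene is not reported here. Alternatives were another scaling, other limits on low values, another pseudocount, another measure of spread and leaving out each library.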

Additional observations from a re-analysis of the deposited data

Results flagged for a closer look

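For 36 of 386 values checked (genes named in the text with a mean of at least 5 CPM, class shares and summed lists), 1 of the 5 libraries lay far from the other 4 by Dixon's criterion, its gap to the nearest library being over 0.71 of the whole range. Chance alone gives about 1 in 20 such values. Of all 9287 genes with a mean of at least 5 CPM, 646 (6.96%) were of this kind, 349 of them through replicate 1. Of the 36 values 31 stood out through replicate 1, and many of the named genes were chosen because their libraries differ.

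Replicate 1 was far above the other libraries for the heat shock genes hsp90aa1.2 (153 CPM against 19.7 to 39.3 CPM), hsp70.1 (57.3 CPM against 8.07 to 13.6 CPM), serpinh1b (1123 CPM against 209 to 255 CPM) and dnajb1b (178 CPM against 83.8 to 103 CPM). It was above them for the ER chaperone genes hspa5 (889 CPM against 326 to 397 CPM), hsp90b1 (115 CPM against 37.5 to 51.3 CPM) and pdia4 (83.6 CPM against 31.9 to 37.9 CPM). The same held for the clock and light-induced genes per2 (36.8 CPM against 8.48 to 9.50 CPM), cry1a (56.8 CPM against 13.2 to 16.6 CPM), cry2b (39.3 CPM against 12.2 to 16.999 CPM), tefa (214 CPM against 115 to 141 CPM) and xpc (38.5 CPM against 23.2 to 25.4 CPM). Of hypoxia genes it held for ankrd37 (38.4 CPM against 5.16 to 12.3 CPM), egln3 (31.2 CPM against 5.16 to 11.2 CPM) and ddit4 (110.4 CPM against 34.97 to 46.9 CPM). The summed levels of these lists in replicate 1 were 6098 CPM for ER chaperones, 1066 CPM for the clock and 2062 CPM for hypoxia, each above the other 4 libraries.

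Other genes high in replicate 1 were the mitotic genes cdc20 (254 CPM against 186 to 193 CPM) and plk1 (507 CPM against 432 to 444 CPM), rsrp1 (115 CPM against 33.01 to 52.4 CPM), the somite gene uncx4.1 (68.3 CPM against 37.3 to 44.9 CPM) and shhb (11.3 CPM against 7.10 to 8.25 CPM), a Hedgehog ligand gene. Mitochondrial ribosomal protein genes held their highest share there, 0.39961% of counts. Genes low in replicate 1 were eef1a1l1 (7251 CPM against 8398 to 8702 CPM), srsf5a (171 CPM against 500.2 to 526 CPM), cant1b (4.65 CPM against 36.3 to 47.5 CPM), atf6 (14.5 CPM against 23.3 to 25.4 CPM), sox21a (60.6 CPM against 78.9 to 82.5 CPM) and smyhc3 (4.97 CPM against 9.49 to 10.97 CPM). Translation elongation factors held 1.11% of counts in replicate 1, their lowest share.

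In replicate 2, gch2 (21.4 CPM against 3.59 to 8.01 CPM) and the tropomyosin gene tpm4a (229 CPM against 197 to 203 CPM) were high and the apelin receptor gene aplnra (47.2 CPM against 53.9 to 56.2 CPM) was low. In replicate 3, scp2a (70.05 CPM against 23.4 to 35.2 CPM) was high, and h2afvb had 551 CPM against 519.8 to 528 CPM. No library other than these 3 stood out for a value named in the text.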

How the results depend on the processing

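The levels of all 410 named genes moved by less than 1 SD with library totals in place of TMM. The TMM factors lay between 0.992 and 1.01, so this change could move the levels only little. Without replicate 1, 10 named genes moved by over 1.5 times. hsp90aa1.2 then averaged 28.3 against 53.2 CPM, serpinh1b 233 against 411, hsp70.1 11.998 against 21.05, ankrd37 7.99 against 14.1, per2 9.03 against 14.6, cry1a 14.99 against 23.3, egln3 8.37 against 12.9, hsp70l 1.32 against 2.01, mpx 0.137 against 0.44 and pvalb4 0.0128 against 0.0423 CPM. Others that moved so far were pvalb1 without replicate 2 (0.0246 against 0.0768 CPM) and buc (0.0514 against 0.123 CPM) and ctsbb (0.0268 against 0.0623 CPM) without replicate 4, all at or under the floor. The count of variable genes depended most on the choices made. Against 42 genes over a biological CV of 0.5 at a mean of 5 CPM, 120 were over it when genes down to 1 CPM entered and 14 when the limit was 20 CPM. The square root of edgeR's tagwise dispersion, which is drawn towards the trend over all genes, was over 0.5 for 6 genes, all of them among the 42. Leaving out 1 library in turn gave 15 to 56 genes, with 15 when replicate 1 was left out. With a mean of at least 20 CPM the genes at least 2-fold apart in 1 library numbered 35, 9, 3, 0 and 1 in replicates 1 to 5. They numbered 89, 24, 18, 3 and 3 at 5 CPM, where more genes entered and genes with few reads varied more. How much each of these contributed was not tested. Over all summary counts and shares, 43 of 51 values under another setting and 224 of 225 with a library left out moved by less than the spread or 1.5 times. Leaving out 1 of 5 libraries cannot move a mean over them by its SD. Where the spread was the limit, the result with a library left out was therefore fixed in advance. With 1 library left out, detected genes lay between 10789 and 10842, against 10755 with all 5. Detection asks for 1 CPM in every library, so leaving 1 out could hardly lower this count or the detected counts of the lists. Pairs at least 2-fold apart lay between 825 and 838 with 1 library left out. A corrected ratio for transcript length and a limma test of the pairs were planned and not run, because no lengths were used here, so the counts of pairs are of uncorrected read ratios. No paired analysis was possible because only 1 group was used and no result comes from a test between groups. Counting limits genes near the floor of 3 reads, and genes under 5 CPM were given no CV.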
